A study of Arabidopsis thaliana with 8 samples.

Results

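The nuclear genes of the photosystems and of their light-harvesting antennae were described in an RNA-Seq series of etiolated *Arabidopsis thaliana* seedlings. They were chosen by locus, by a rule that names no measured value, as 42 of the 33518 loci in the deposited table. The 42 loci are 6 *LHCA* genes, 8 *LHCB1* and *LHCB2* genes, 6 genes from *LHCB3* to *LHCB6*, 12 genes of photosystem I (PSI) subunits from *PSAD* to *PSAO*, and 10 genes of photosystem II (PSII) subunits from *PSBO* to *PSBY*. Seedlings of *iaa3/shy2-2* (*iaa3*) and of wild type (Col-0) were kept in darkness for 5 days on 2 µM propiconazole (PPZ), an inhibitor of brassinosteroid (BR) synthesis. They then received 100 nM brassinolide (BL), an active BR, or a mock solution for 4 hr. The 4 groups were *iaa3* BL, *iaa3* mock, wild type BL and wild type mock, with 2 libraries each, and darkness and PPZ were common to all of them. The *iaa3/shy2-2* allele is a dominant gain-of-function allele whose IAA3 protein, a repressor of auxin response, is stabilized, and the study's methods place the mutant in the Col-0 background. The study used these groups to ask how the BR response depends on auxin signaling. The labels do not say whether the libraries of a group came from separate cultures, so p-values measure only the spread between these libraries, which may be technical.

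Photosystems are the chlorophyll-binding complexes of the chloroplast that turn light into electron flow, and their antenna proteins collect the light. LHCA proteins serve PSI. LHCB1, LHCB2 and LHCB3 form the antenna trimers of PSII, and LHCB4, LHCB5 and LHCB6 link those trimers to its core. The core proteins that carry the reaction centres are made in the plastid, while the proteins described here are encoded in the nucleus. Their mRNAs are kept low in darkness and rise strongly in light, and seedlings short of BR are known to show some features of light-grown seedlings in darkness.

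Whole seedlings were extracted, so fewer cells of a type and less RNA per cell cannot be told apart in any value below. Total counts per library ran between 18107519 and 23183988, with a median of 22316700. Levels are given as CPM, counts scaled to a common library size with edgeR's TMM factors, which ran between 0.948 and 1.08. All 42 genes were among the 20415 loci that passed the filter on low counts. Together they took between 0.981% and 1.63% of the reads of a library. *PORA*, the protochlorophyllide reductase of dark-grown seedlings, had 564 and 477 CPM in *iaa3* BL, 426 and 468 in *iaa3* mock, 1114 and 1170 in wild type BL, and 628 and 674 in wild type mock. *ELIP1* and *ELIP2*, antenna-related genes that mark exposure to light, did not exceed 5.46 CPM in any library. *IAA3* mRNA had 11.4 and 12.9 CPM in *iaa3* BL, 13.7 and 11.1 in *iaa3* mock, 129 and 121 in wild type BL, and 45.2 and 45 in wild type mock, so the genotypes did not overlap. This does not test the mutation itself, which acts on the protein.

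The wild type mock libraries stood apart from each other for these genes. Replicate 2 was above replicate 1 for 41 of the 42 genes, with a median log2 ratio of 0.33. The median log2 ratio of replicate 2 to replicate 1 was −0.12 in *iaa3* BL, 0.12 in *iaa3* mock and −0.04 in wild type BL. Replicate 2 was the higher for 3, 38 and 13 of the 42 genes in these groups. The genes thus tended to move together between replicates, and counts over the 42 genes are not counts of separate observations. Over all loci the chi-square per degree of freedom between replicates was 12.4 in wild type mock, against 5.62 in *iaa3* BL, 4.50 in *iaa3* mock and 3.98 in wild type BL, so replicates differed by more than sampling noise and each library was kept as a sample. The summed level of 7 seed reserve genes also differed widely between these libraries, at 829 CPM in wild type mock replicate 1 and 114 CPM in replicate 2. It differed widely in *iaa3* BL too, at 32.1 CPM in replicate 1 and 219 CPM in replicate 2. The fit estimated a single spread per gene from all 8 libraries. Standard errors and p-values of the comparisons that rest on wild type mock can therefore understate its spread. These comparisons are also described by the single wild type mock libraries.

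The summed level of the 42 genes was highest in wild type seedlings given BL. It was 11379 and 10356 CPM in *iaa3* BL, 10867 and 11593 CPM in *iaa3* mock, 16458 and 15818 CPM in wild type BL, and 11309 and 14350 CPM in wild type mock. The wild type BL libraries lay above the other 6, and wild type mock replicate 1 lay among the *iaa3* libraries. Of the 42 genes 38 had their highest mean in wild type BL, while *LHCA5*, *PSAE2*, *PSAL* and *PSAN* had it in *iaa3* mock. Within wild type mock, length-scaled levels covered a wide range. *LHCB1.3* had the highest mean at 1259 CPM per kb of transcript, and its wild type mock libraries, at 1056 and 1461, lay above those of every other member. *PSBR* followed at 681 and *LHCB4.2* at 598, and their libraries overlapped. The lowest means were 5.52 CPM per kb for *LHCB4.3*, 5.61 for *LHCB1.1*, 7.58 for *LHCB1.2* and 7.60 for *LHCB2.3*. Neighbours in this order overlapped and so did not differ beyond their spread, while *LHCB1.1*, at 5.73 and 5.49, lay below *LHCB2.3*, at 6.01 and 9.20. The transcripts of *LHCB1.1*, *LHCB1.2*, *LHCB1.3* and *LHCB2.3* share sequence with others, as given below, so their places in this order are uncertain.

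**Figure D1:**
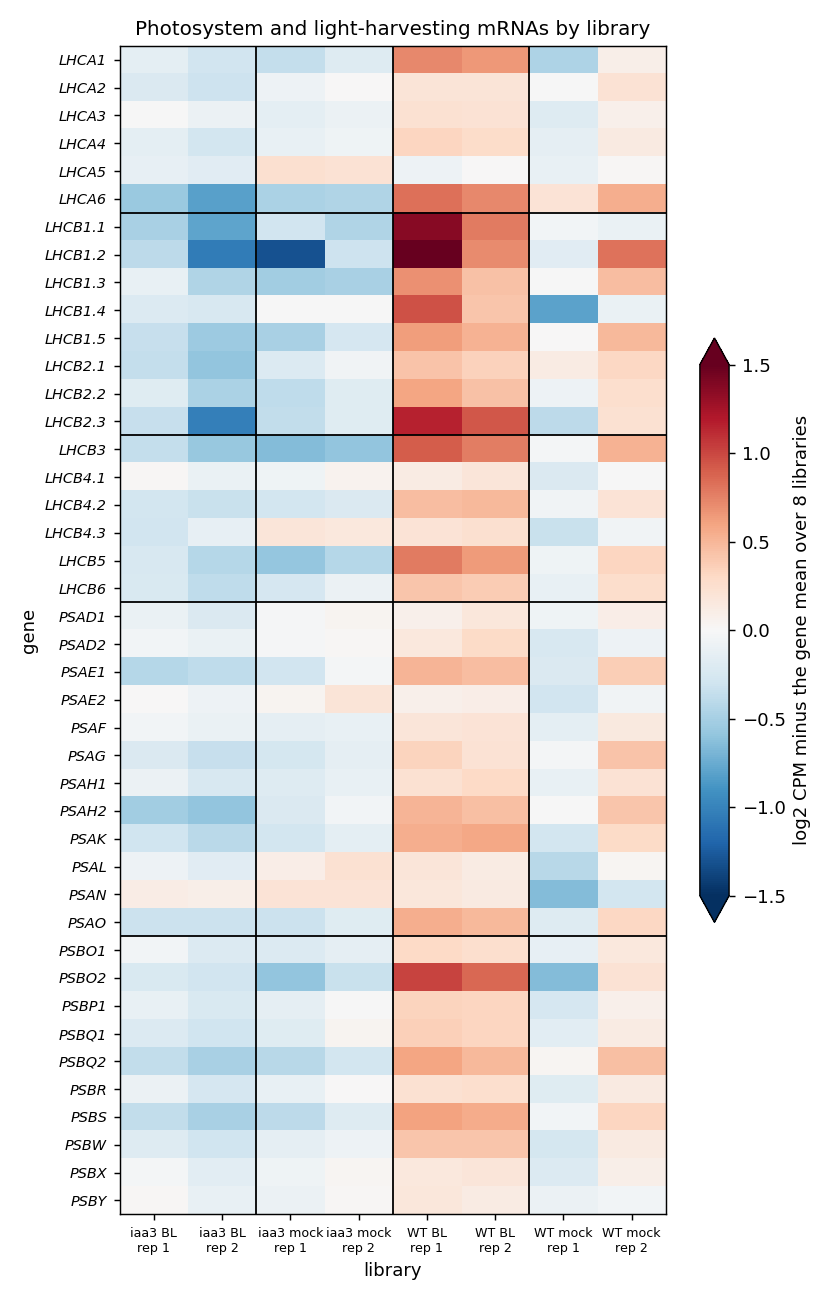
Level of each of the 42 genes (rows, grouped from top to bottom as LHCA, LHCB1 and LHCB2, LHCB3 to LHCB6, PSI subunits and PSII subunits) in each of the 8 libraries (columns), as log2 CPM minus the mean of that gene over the 8 libraries. The wild type BL columns are the reddest, and the wild type mock columns differ from each other, with replicate 2 above replicate 1 for 41 of the 42 genes.

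With BL, light-harvesting and photosystem mRNAs were lower in *iaa3* than in wild type. Of the 42 genes 23 were called lower and 0 higher, against 13.8% of the 20415 tested loci called lower and 11.2% called higher. The rule for a call was that of the study's methods, 1.5-fold or more with an unadjusted p under 0.01, here from edgeR's quasi-likelihood fit to all 8 libraries. DESeq2 called 23 lower and 0 higher by the same rule. The log2 fold change was below 0 for 42 of 42 genes. With no positive difference, 0 of 42 genes could be higher at an unadjusted p under 0.05, beside 27.3% of all tested loci. Both *iaa3* BL libraries were below both wild type BL libraries for 42 of 42 genes, which was so for 38.5% of all tested loci, while 37.6% had *iaa3* above. An adjusted p under 0.05 with no limit on the fold was reached by 37 genes, all lower in *iaa3*, beside 24.8% of all tested loci. The median log2 fold change was −0.68 over the 42 genes and −0.0027 over all tested loci. The *LHCB1* and *LHCB2* genes had the lowest median at −0.98, with 8 of 8 called. The medians and calls were −0.74 with 4 of 6 for *LHCB3* to *LHCB6*, −0.55 with 5 of 10 for PSII subunits, −0.48 with 2 of 6 for *LHCA* and −0.36 with 4 of 12 for PSI subunits. Differences between these groups of genes were not tested. Of the 23 calls, 20 held when any 1 library was left out. A 2-fold limit in place of 1.5-fold left 10.

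In mock the difference between the genotypes was small for most of the genes. Of the 42, 6 were called lower in *iaa3* (*LHCA6*, *LHCB1.3*, *LHCB1.5*, *LHCB3*, *LHCB5* and *PSBQ2*) and 1 higher (*PSAN*), against 9.48% and 8.47% of all tested loci. The libraries did not overlap for 23 genes, below in *iaa3* for 16 and above for 7, beside 35.1% and 33.8% of all tested loci. The median log2 fold change was −0.20, beside −0.0118 over all tested loci. These counts depended on the wild type mock library used. Without wild type mock replicate 2 the median was 0.05. Against wild type mock replicate 2 the ratios of single libraries had medians of −0.38 and −0.31. Only the call of *LHCA6* held when each library was left out. With library size alone as scaling, *PSAN* was no longer called, its log2 fold change being 0.53, while the median of all loci stood at −0.13 and that of the 42 genes at −0.33.

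In wild type a few of the mRNAs rose with BL and most others had small positive differences. *LHCA1*, *LHCB1.1*, *LHCB1.4*, *LHCB2.3*, *PSAN* and *PSBO2* rose, which is 6 of 42 genes against 8.45% of all tested loci, and 0 fell against 5.87%. DESeq2 called 6 higher and 0 lower. The log2 fold change was above 0 for 42 of 42 genes. With no negative difference, 0 of 42 genes could be lower at an unadjusted p under 0.05, beside 20.3% of all tested loci. Of the 42 genes 23 were higher at an adjusted p under 0.05 with no limit on the fold, as were 17% of all tested loci. The libraries did not overlap and were higher with BL for 36 genes, beside 32.5% of all tested loci, and lower for 0, beside 33.1%. The median log2 fold change was 0.34 (−0.0097 over all tested loci), and with library size alone as scaling it was 0.24 while the median of all loci was −0.11. Without wild type mock replicate 2 the median was 0.55. Over wild type mock replicate 2 the ratios of single libraries had medians of 0.22 and 0.15. The rises other than that of *PSAN* held when each library was left out.

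In *iaa3* 0 of 42 genes were called in either direction after BL, against 4.69% of all tested loci called higher and 3.46% called lower. At an unadjusted p under 0.05 with no limit on the fold, 7 genes were lower with BL and 0 higher, beside 14.6% of all tested loci lower and 16.7% higher, and DESeq2 also called 0 in either direction. The log2 fold change was below 0 for 33 genes and above 0 for 9, with a median of −0.10 and a range between −0.43 for *PSAH2* and 0.23 for *LHCB1.3*. The BL and mock libraries overlapped for 19 genes, while BL was below mock for 19, beside 29.4% of all tested loci, and above it for 4, beside 31.7%.

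The response to BL differed between the genotypes by the interaction term for 19 of 42 genes. The response was lower in *iaa3* for all 19, and it was higher in *iaa3* for 0. A call here needed an edgeR adjusted p under 0.05, which 9.95% of all tested loci reached in the lower and 7.63% in the higher direction. DESeq2 called 20 lower and 0 higher. The difference of log2 fold changes, *iaa3* minus wild type, was below 0 for 42 of 42 genes with a median of −0.45, beside 0.0084 over all tested loci. With no positive difference, 0 of 42 genes could be higher at an unadjusted p under 0.05, beside 15.1% of all tested loci. Among the 19 were 4 of 6 *LHCA* genes, 4 of 8 *LHCB1* and *LHCB2* genes, 2 of 6 genes from *LHCB3* to *LHCB6*, 5 of 12 PSI genes and 4 of 10 PSII genes. The number of calls moved with the libraries used. The median moved as well, to −0.66 without wild type mock replicate 2 and to −0.32 without wild type mock replicate 1. The calls of *LHCB1.1*, *LHCB1.4*, *LHCB2.3*, *LHCB4.3* and *PSAN* held without each library. Library size alone as scaling left 11 calls.

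**Figure D2:**
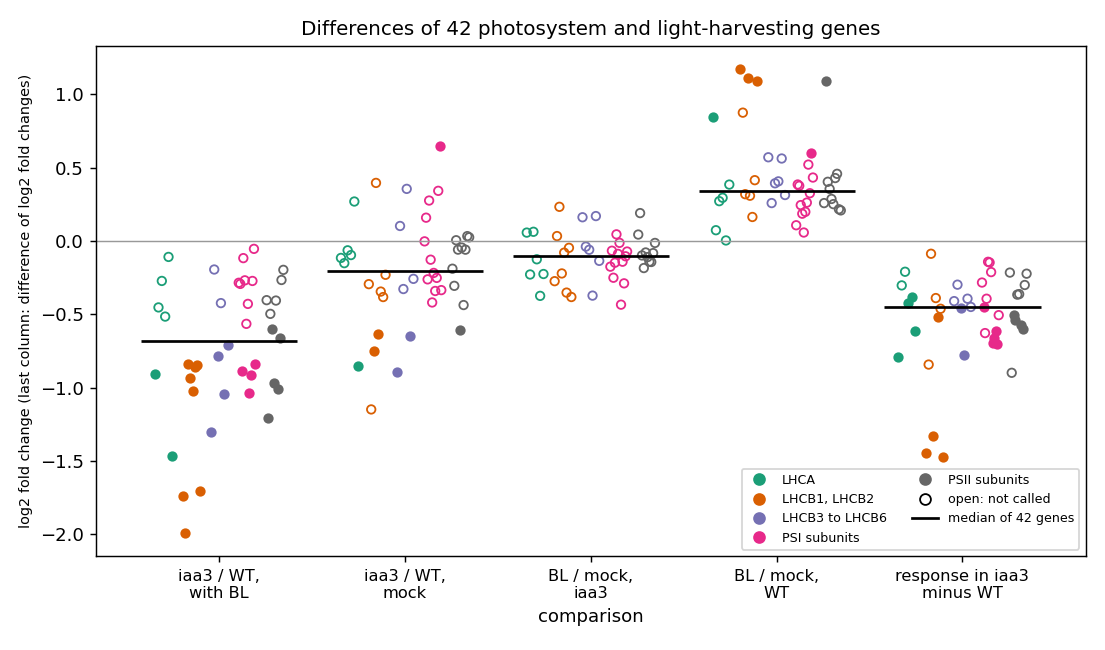
Log2 fold change of each of the 42 genes in 4 comparisons, and in the last column the difference of the BL responses, iaa3 minus wild type (WT). Filled points were called (at least 1.5-fold with an unadjusted p under 0.01, or for the last column an adjusted p under 0.05), colours give the role, and bars are medians, which stand at −0.68, −0.20, −0.10, 0.34 and −0.45.

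The *LHCB1* genes encode the most abundant chlorophyll-binding proteins of the PSII trimers. Of these, *LHCB1.1*, *LHCB1.2* and *LHCB1.3* are neighbours on chromosome 1, and *LHCB1.4* and *LHCB1.5* are neighbours on chromosome 2. The promoters of *LHCA1*, *LHCB1.1*, *LHCB1.4* and *LHCB2.3*, called for BL in wild type, for *iaa3* against wild type with BL and for the interaction are shown because these 4 antenna genes met all of these calls. Each run is the 250 bases that end before the gene start, 5′ to 3′ on the strand of the gene, taken by locus from RefSeq (assembly TAIR10.1). Capitals mark matches, on either strand, to the motifs named after the sequences.
*LHCA1*, chr3:20341177-20341426, minus strand: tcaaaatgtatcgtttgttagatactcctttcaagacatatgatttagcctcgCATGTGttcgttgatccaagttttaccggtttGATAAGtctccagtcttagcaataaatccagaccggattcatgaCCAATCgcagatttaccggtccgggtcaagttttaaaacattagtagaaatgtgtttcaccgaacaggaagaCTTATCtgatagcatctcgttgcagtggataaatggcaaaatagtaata
*LHCB1.1*, chr1:10475970-10476219, minus strand: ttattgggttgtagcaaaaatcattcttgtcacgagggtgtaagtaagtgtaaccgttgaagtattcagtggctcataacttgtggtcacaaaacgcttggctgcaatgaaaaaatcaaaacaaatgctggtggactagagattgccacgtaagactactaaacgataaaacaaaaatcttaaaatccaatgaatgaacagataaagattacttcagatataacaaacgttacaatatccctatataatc
*LHCB1.4*, chr2:14524357-14524606, plus strand: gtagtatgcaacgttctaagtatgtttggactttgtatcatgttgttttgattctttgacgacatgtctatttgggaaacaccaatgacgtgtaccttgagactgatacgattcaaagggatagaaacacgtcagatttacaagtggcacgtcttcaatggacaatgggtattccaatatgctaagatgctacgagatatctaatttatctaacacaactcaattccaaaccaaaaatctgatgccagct
*LHCB2.3*, chr3:10255656-10255905, plus strand: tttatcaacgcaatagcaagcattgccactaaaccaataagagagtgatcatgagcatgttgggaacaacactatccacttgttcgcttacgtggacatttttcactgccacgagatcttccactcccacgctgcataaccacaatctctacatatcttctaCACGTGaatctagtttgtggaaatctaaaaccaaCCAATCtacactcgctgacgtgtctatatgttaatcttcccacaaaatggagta
The motifs were searched on both strands in the same window of all 42 genes and of 27437 annotated genes. The G-box CACGTG, bound by PIF and BZR1 proteins among others, was found in 8 of 42 promoters (19.0%) and in 6.49% of all. The *LHCB2.3* promoter holds it, while those of *LHCA1*, *LHCB1.1* and *LHCB1.4* do not. The CCAATC motif was found in 11 of 42 (26.2%, 10.2% of all), among them *LHCA1* and *LHCB2.3*. The I-box GATAAG, known from genes of photosynthesis, was found in 9 of 42 (21.4%, 12.3% of all), with a pair of matches in *LHCA1*. The HUD motif CACATG was found in 4 of 42 (9.52%, 11.1% of all), *LHCA1* included, the auxin response element TGTCTC in 5 of 42 (11.9%, 10.9% of all), and the BR response element, CGTGTG or CGTGCG, in 3 of 42 (7.14%, 6.71% of all). The G-box and the BR response element can overlap by shared letters. *LHCB1.1* and *LHCB1.4* hold none of these letters in the window shown.

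*LHCB1.1* (AT1G29920) had 5.51 and 4.48 CPM in *iaa3* BL, 6.35 and 5.67 in *iaa3* mock, 19.9 and 13.3 in wild type BL, and 7.53 and 7.22 in wild type mock. Only the wild type BL libraries were high. Between the genotypes with BL the log2 fold change was −1.74 (standard error 0.19, edgeR adjusted p = 3.06e-05, where each adjusted p is the Benjamini-Hochberg value of edgeR's quasi-likelihood test over all tested loci). Its rise with BL in wild type was 1.17 as a log2 fold change (standard error 0.18, edgeR adjusted p = 0.00048), and the difference between the responses was −1.45 (standard error 0.28, edgeR adjusted p = 0.00496). *LHCB1.4* (AT2G34430) had 19.3 and 18.8 CPM in *iaa3* BL, 22.3 and 22.2 in *iaa3* mock, 43.2 and 29.7 in wild type BL, and 12.8 and 20.8 in wild type mock. Its wild type BL libraries were the highest and its wild type mock replicate 1 the lowest. In *iaa3* with BL it was lower, at −0.93 (standard error 0.20, edgeR adjusted p = 0.00311), a call that was lost without wild type BL replicate 1, where the value was −0.64. Its rise with BL in wild type was 1.11 (standard error 0.20, edgeR adjusted p = 0.00161).

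*LHCB1.3* (AT1G29930), the most abundant member, had another pattern. It had 1212 and 952 CPM in *iaa3* BL, 911 and 929 in *iaa3* mock, 2100 and 1766 in wild type BL, and 1299 and 1797 in wild type mock. All *iaa3* libraries were below all wild type libraries, and wild type BL and mock overlapped. The log2 fold change between the genotypes was −0.84 with BL (standard error 0.15, edgeR adjusted p = 0.000982) and −0.75 in mock (standard error 0.15, edgeR adjusted p = 0.00287). The mock call was lost without wild type mock replicate 2, at −0.49. The BL response was 0.32 in wild type (edgeR adjusted p = 0.133) and 0.23 in *iaa3* (edgeR adjusted p = 0.328), and the difference between the responses was −0.09 (standard error 0.21, edgeR adjusted p = 0.828). *LHCB1.5* (AT2G34420) had 187 and 162 CPM in *iaa3* BL, 169 and 200 in *iaa3* mock, 367 and 341 in wild type BL, and 239 and 332 in wild type mock. Again the 4 *iaa3* libraries were below the 4 wild type libraries, with log2 fold changes of −1.02 with BL (standard error 0.14, edgeR adjusted p = 0.000155) and −0.63 in mock (standard error 0.14, edgeR adjusted p = 0.00508). The mock call was lost without *iaa3* mock replicate 1, at −0.51, and without wild type mock replicate 2, at −0.37.

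*LHCB1.2* (AT1G29910) was the least precise member. It had 5.34 and 3.39 CPM in *iaa3* BL, 2.82 and 5.63 in *iaa3* mock, 22.9 and 11.4 in wild type BL, and 6.21 and 12.3 in wild type mock. Its libraries lay far apart within *iaa3* mock, wild type BL and wild type mock, and the *iaa3* groups overlapped. It was called lower in *iaa3* with BL at a log2 fold change of −1.99 (standard error 0.42, edgeR adjusted p = 0.00267), and without wild type BL replicate 1 the value was −1.40 and the call was lost. The *LHCB1* genes share sequence. Of the 50-base windows of the *LHCB1.1* transcript 20.5% occur in another annotated transcript, mostly those of *LHCB1.3* (13.9%) and *LHCB1.2* (7.91%). The shares were 10.6% for *LHCB1.2*, 22% for *LHCB1.3*, 13.7% for *LHCB1.4* and 22.3% for *LHCB1.5*. How reads that match several loci were counted is not given in the sources used here, so the split of counts among these genes is uncertain.

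The *LHCB2* genes encode the other main protein of the trimers, which is phosphorylated when light energy is shifted between photosystems. *LHCB2.3* (AT3G27690) had 9.13 and 5.68 CPM in *iaa3* BL, 8.94 and 10.2 in *iaa3* mock, 25.6 and 22.1 in wild type BL, and 8.80 and 13.5 in wild type mock. As for *LHCB1.1*, the wild type BL libraries alone were high. The log2 fold change between the genotypes was −1.70 with BL (standard error 0.22, edgeR adjusted p = 8.66e-05), the rise with BL in wild type was 1.09 (standard error 0.20, edgeR adjusted p = 0.00178), and the difference between the responses was −1.47 (standard error 0.31, edgeR adjusted p = 0.00814). Of its 50-base windows 38.6% lie in the transcript of the neighbouring locus AT3G27700, so its counts are uncertain. *LHCB2.1* (AT2G05100) had 52.6 and 44.9 CPM in *iaa3* BL, 58.9 and 65.3 in *iaa3* mock, 91.1 and 85.6 in wild type BL, and 73.7 and 83.9 in wild type mock. *LHCB2.2* (AT2G05070) had 62.8 and 51.6 CPM in *iaa3* BL, 54.8 and 63.2 in *iaa3* mock, 108 and 96.8 in wild type BL, and 68.1 and 85.5 in wild type mock. Both were called lower in *iaa3* with BL, at −0.86 (standard error 0.10, edgeR adjusted p = 3.01e-05) and −0.84 (standard error 0.12, edgeR adjusted p = 0.000245). Neither was called for BL in wild type, where their values were 0.16 and 0.42. They share sequence with each other, 22.7% of the windows of *LHCB2.1* and 28.2% of those of *LHCB2.2*.

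*LHCB3*, the minor protein of the PSII trimers, and the linker antenna proteins had varied values. *LHCB3* (AT5G54270) had 209 and 180 CPM in *iaa3* BL, 170 and 177 in *iaa3* mock, 500 and 455 in wild type BL, and 261 and 382 in wild type mock. All *iaa3* libraries were below all wild type libraries, and in wild type the BL libraries were above the mock libraries. The log2 fold change between the genotypes was −1.30 with BL (standard error 0.15, edgeR adjusted p = 3.69e-05) and −0.89 in mock (standard error 0.15, edgeR adjusted p = 0.000822). In mock it was −0.58 and no longer called without wild type mock replicate 2. *LHCB5* (AT4G10340), a linker between trimers and core, had the same order of groups, with 372 and 325 CPM in *iaa3* BL, 293 and 325 in *iaa3* mock, 750 and 680 in wild type BL, and 420 and 548 in wild type mock. It was called lower in *iaa3* with BL at −1.04 (standard error 0.12, edgeR adjusted p = 4.49e-05) and in mock at −0.65 (standard error 0.12, edgeR adjusted p = 0.00179). The mock call of *LHCB5* was lost without *iaa3* mock replicate 1, at −0.57, and without wild type mock replicate 2, at −0.44. *LHCB6* (AT1G15820), another linker, had 250 and 226 CPM in *iaa3* BL, 245 and 276 in *iaa3* mock, 392 and 383 in wild type BL, and 271 and 352 in wild type mock, and was called in the comparison with BL, at −0.71 (standard error 0.11, edgeR adjusted p = 0.000453).

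**Figure D3:**
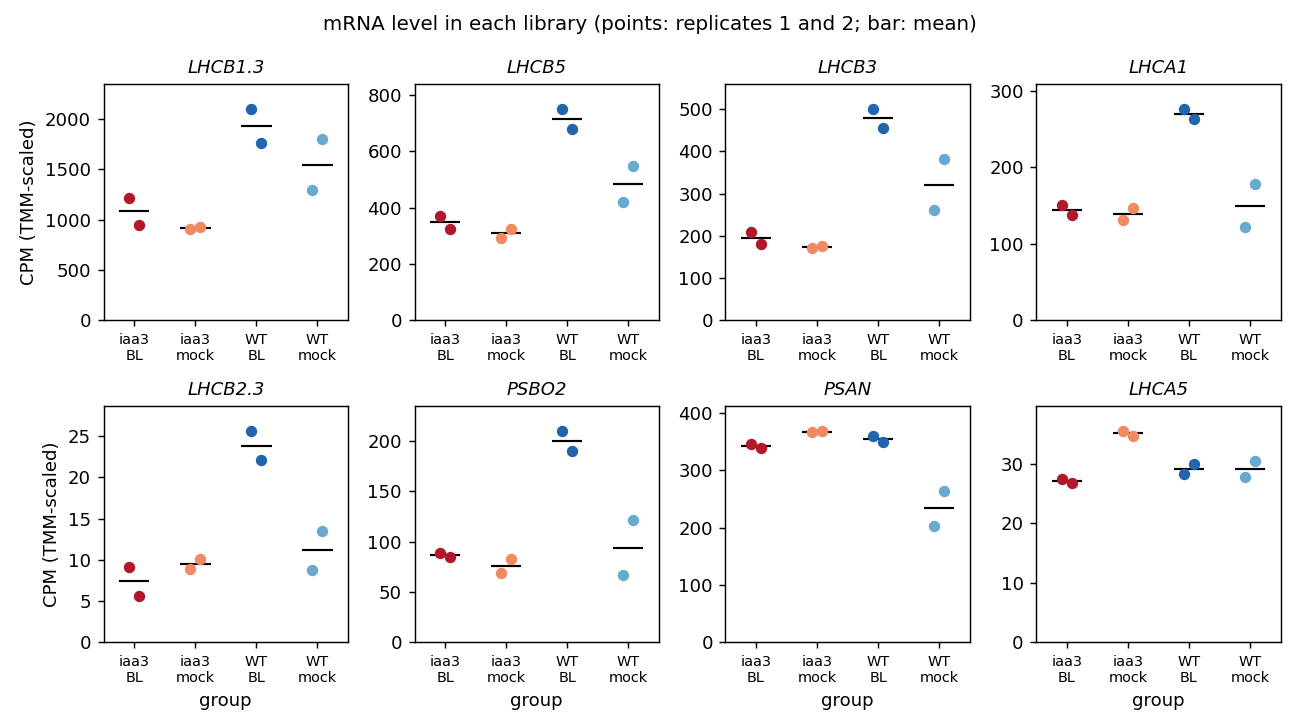
CPM of 8 of the genes in each library, with the 4 groups on the horizontal axis, each point a library and each bar the mean of 2. In LHCB1.3, LHCB5 and LHCB3 both iaa3 groups lie below both wild type (WT) groups, in LHCA1, LHCB2.3 and PSBO2 the WT BL libraries alone are high, in PSAN the WT mock libraries alone are low, and in LHCA5 the iaa3 mock libraries alone are high.

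The 3 *LHCB4* genes encode forms of the same linker protein and had unlike values. *LHCB4.1* (AT5G01530) had 793 and 733 CPM in *iaa3* BL, 751 and 816 in *iaa3* mock, 858 and 888 in wild type BL, and 677 and 781 in wild type mock. It was not called in any comparison, its value for *iaa3* against wild type with BL being −0.19 (edgeR adjusted p = 0.0812). *LHCB4.2* (AT3G08940) had 599 and 575 CPM in *iaa3* BL, 598 and 625 in *iaa3* mock, 1001 and 1015 in wild type BL, and 701 and 833 in wild type mock. Its *iaa3* libraries were all below its wild type libraries, and with BL it was called lower at −0.78 (standard error 0.08, edgeR adjusted p = 2.61e-05). *LHCB4.3* (AT2G40100), which had the lowest mean per length in wild type mock but not in *iaa3*, had 6.83 and 7.62 CPM in *iaa3* BL, 9.43 and 9.30 in *iaa3* mock, 9.59 and 9.83 in wild type BL, and 6.58 and 8.01 in wild type mock. Here *iaa3* mock and wild type BL were the high groups. The difference between the responses was −0.78 (standard error 0.18, edgeR adjusted p = 0.0127), with responses of −0.37 in *iaa3* and 0.41 in wild type that were not called on their own. Differences among the 3 genes were not tested.

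Among the *LHCA* genes of the PSI antenna, *LHCA1* and *LHCA6* were called lower in *iaa3* with BL. *LHCA1* (AT3G54890) had 151 and 137 CPM in *iaa3* BL, 131 and 146 in *iaa3* mock, 276 and 264 in wild type BL, and 122 and 177 in wild type mock. The wild type BL libraries alone were high. The log2 fold change between the genotypes with BL was −0.90 (standard error 0.14, edgeR adjusted p = 0.000345), and BL raised it in wild type by 0.85 (standard error 0.14, edgeR adjusted p = 0.000861). *LHCA6* (AT1G19150), a minor member known to link PSI with a complex of cyclic electron flow, had 12.1 and 10.1 CPM in *iaa3* BL, 12.8 and 13.0 in *iaa3* mock, 31.6 and 29.3 in wild type BL, and 20.5 and 26.0 in wild type mock. All *iaa3* libraries were below all wild type libraries. Its log2 fold change was −1.46 with BL (standard error 0.13, edgeR adjusted p = 4.76e-06) and −0.85 in mock (standard error 0.12, edgeR adjusted p = 0.000341). *LHCA5* (AT1G45474), which has the same known role as *LHCA6*, had 27.5 and 26.7 CPM in *iaa3* BL, 35.5 and 34.7 in *iaa3* mock, 28.4 and 30.0 in wild type BL, and 27.8 and 30.4 in wild type mock. Its *iaa3* mock libraries were the highest, and the differences stayed under the 1.5-fold limit. The major antenna genes *LHCA2*, *LHCA3* and *LHCA4* were each between 537 and 883 CPM and were not called between genotypes or for BL. With BL their *iaa3* libraries were below those of wild type, at −0.45, −0.27 and −0.51 (edgeR adjusted p = 0.00108, 0.0236 and 0.000798), under the 1.5-fold limit. *LHCA1*, *LHCA4*, *LHCA5* and *LHCA6* were called for the interaction, at −0.79, −0.42, −0.38 and −0.61 (edgeR adjusted p = 0.0198, 0.0447, 0.0317 and 0.0374).

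Of the 12 PSI subunit genes 4 were called lower in *iaa3* with BL, *PSAE1*, *PSAH2*, *PSAK* and *PSAO*. PSAE and PSAD form the stromal face of PSI where ferredoxin docks. *PSAE1* (AT4G28750) had 103 and 107 CPM in *iaa3* BL, 114 and 136 in *iaa3* mock, 197 and 192 in wild type BL, and 120 and 179 in wild type mock. *PSAE2* (AT2G20260) had 172 and 163 CPM in *iaa3* BL, 176 and 196 in *iaa3* mock, 180 and 183 in wild type BL, and 141 and 166 in wild type mock. The *iaa3* against wild type value with BL was −0.89 for *PSAE1* (standard error 0.15, edgeR adjusted p = 0.000679) and −0.12 for *PSAE2* (standard error 0.09, edgeR adjusted p = 0.301), and the gap between the paralogs was not tested. *PSAD1* (AT4G02770) had 263 and 244 CPM in *iaa3* BL, 280 and 292 in *iaa3* mock, 299 and 318 in wild type BL, and 270 and 302 in wild type mock. *PSAD2* (AT1G03130) had 145 and 139 CPM in *iaa3* BL, 147 and 150 in *iaa3* mock, 167 and 182 in wild type BL, and 126 and 141 in wild type mock. Neither was called between genotypes or for BL, and their *iaa3* against wild type values with BL were close, −0.28 for *PSAD1* and −0.29 for *PSAD2*. The responses of *PSAD2* to BL, −0.07 in *iaa3* and 0.39 in wild type, were called different at −0.45 (standard error 0.11, edgeR adjusted p = 0.0155).

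PSAH, PSAL and PSAO lie on the side of PSI where antenna trimers of PSII can dock. *PSAH2* (AT1G52230) had 42.6 and 40.8 CPM in *iaa3* BL, 52.9 and 59.7 in *iaa3* mock, 87.4 and 83.5 in wild type BL, and 60.9 and 81.4 in wild type mock. *PSAH1* (AT3G16140) had 124 and 112 CPM in *iaa3* BL, 116 and 122 in *iaa3* mock, 155 and 162 in wild type BL, and 122 and 154 in wild type mock. The *iaa3* against wild type value with BL was −1.04 for *PSAH2* (standard error 0.12, edgeR adjusted p = 4.12e-05) and −0.43 for *PSAH1* (standard error 0.10, edgeR adjusted p = 0.00512), and *PSAH2* alone was called. Of the windows of *PSAH1* 49.2% and of those of *PSAH2* 19.1% also lie in the transcript of a neighbouring locus, and the same holds for 29.1% of *PSAE1* and 58.8% of *PSAG*. The neighbours of *PSAE1* and *PSAG* are not among the loci of the deposited counts. *PSAK*, an antenna-binding subunit on the opposite side, and *PSAO* were called lower at −0.91 and −0.84, with 114 and 106 CPM against 205 and 210 CPM for *PSAK* and 140 and 140 CPM against 255 and 245 CPM for *PSAO* in *iaa3* BL against wild type BL. For the interaction *PSAH2*, *PSAK* and *PSAL* were called, at −0.70, −0.66 and −0.61 (edgeR adjusted p = 0.0161, 0.0440 and 0.0316). *PSAF*, *PSAG* and *PSAL* were not called between genotypes or for BL. The *iaa3* against wild type values with BL were −0.27 for *PSAF*, −0.56 for *PSAG* and −0.27 for *PSAL*. *PSAL* mRNA was highest in *iaa3* mock and wild type BL, with 525 and 493 CPM in *iaa3* BL, 594 and 649 in *iaa3* mock, 626 and 603 in wild type BL, and 414 and 566 in wild type mock.

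*PSAN* (AT5G64040), a lumenal subunit at the plastocyanin docking site, had the smallest genotype difference with BL of the 42 genes. It had 346 and 338 CPM in *iaa3* BL, 366 and 368 in *iaa3* mock, 359 and 350 in wild type BL, and 204 and 264 in wild type mock. Only the wild type mock libraries were low. With BL the log2 fold change between the genotypes was −0.05 (standard error 0.10, edgeR adjusted p = 0.699), and in mock it was 0.65 (standard error 0.10, edgeR adjusted p = 0.000619). BL raised it in wild type by 0.60 (standard error 0.10, edgeR adjusted p = 0.00111), and the difference between the responses was −0.70 (standard error 0.14, edgeR adjusted p = 0.00736). Without wild type mock replicate 1 the mock difference was 0.47 and the rise with BL 0.43, both under the 1.5-fold limit, and without wild type BL replicate 1 the rise was 0.58. With library size alone as scaling the rise was 0.50 and not called.

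Of the 10 PSII subunit genes 5 were called lower in *iaa3* with BL, *PSBO2*, *PSBQ1*, *PSBQ2*, *PSBS* and *PSBW*. PSBO, PSBP and PSBQ are lumenal proteins that stabilize the water-oxidizing manganese cluster. *PSBO2* (AT3G50820) had 88.5 and 84.9 CPM in *iaa3* BL, 69.2 and 82.7 in *iaa3* mock, 210 and 190 in wild type BL, and 66.4 and 121 in wild type mock. *PSBO1* (AT5G66570), the main form, had 821 and 735 CPM in *iaa3* BL, 738 and 770 in *iaa3* mock, 1044 and 1012 in wild type BL, and 775 and 943 in wild type mock. The wild type BL libraries were the highest for both paralogs. The *iaa3* against wild type value with BL was −1.20 for *PSBO2* (standard error 0.21, edgeR adjusted p = 0.000688) and −0.40 for *PSBO1* (standard error 0.10, edgeR adjusted p = 0.00503). BL raised *PSBO2* in wild type by 1.09 (standard error 0.20, edgeR adjusted p = 0.00203). The difference of the *PSBO2* responses, −0.90, missed the threshold (standard error 0.29, edgeR adjusted p = 0.0567).

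*PSBQ2* (AT4G05180) had 155 and 142 CPM in *iaa3* BL, 149 and 165 in *iaa3* mock, 301 and 281 in wild type BL, and 203 and 274 in wild type mock. *PSBQ1* (AT4G21280) had 152 and 141 CPM in *iaa3* BL, 154 and 179 in *iaa3* mock, 224 and 219 in wild type BL, and 156 and 190 in wild type mock. The *iaa3* libraries were all below the wild type libraries for *PSBQ2*, while for *PSBQ1* they overlapped in mock. With BL the values were −0.97 for *PSBQ2* (standard error 0.12, edgeR adjusted p = 7.47e-05) and −0.60 for *PSBQ1* (standard error 0.10, edgeR adjusted p = 0.000605). The call of *PSBQ1* was lost without *iaa3* BL replicate 2, at −0.55, and without wild type BL replicate 1, at −0.58. In mock *PSBQ2* was called lower at −0.60 (standard error 0.12, edgeR adjusted p = 0.0027), and this call was lost without *iaa3* mock replicate 1, at −0.53, and without wild type mock replicate 2, at −0.37. *PSBS* (AT1G44575), the sensor for dissipation of excess light, had 137 and 127 CPM in *iaa3* BL, 136 and 156 in *iaa3* mock, 270 and 261 in wild type BL, and 172 and 222 in wild type mock, and was called lower with BL at −1.01 (standard error 0.11, edgeR adjusted p = 3.22e-05). *PSBW* (AT2G30570), a small membrane subunit, was called lower with BL at −0.66 (standard error 0.11, edgeR adjusted p = 0.000556), with 174 and 161 CPM in *iaa3* BL against 264 and 265 CPM in wild type BL. *PSBP1*, at −0.50, and *PSBR*, at −0.41, stayed under the 1.5-fold limit with BL, although their libraries did not overlap. The small subunits PSBX and PSBY were not called in any comparison, with *iaa3* against wild type values with BL of −0.26 and −0.20.

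The ratios of single libraries show how much of each comparison rests on 1 library. With BL each of the 4 ratios of an *iaa3* to a wild type library was below 0 for 42 of 42 genes, with medians on the log2 scale between −0.75 and −0.57. In mock the medians were −0.01 and 0.08 against wild type mock replicate 1 and −0.38 and −0.31 against wild type mock replicate 2. For BL in wild type they were 0.55 and 0.51 over wild type mock replicate 1 and 0.22 and 0.15 over wild type mock replicate 2. For BL in *iaa3* the 4 medians lay between −0.23 and 0.02.

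**Figure D4:**
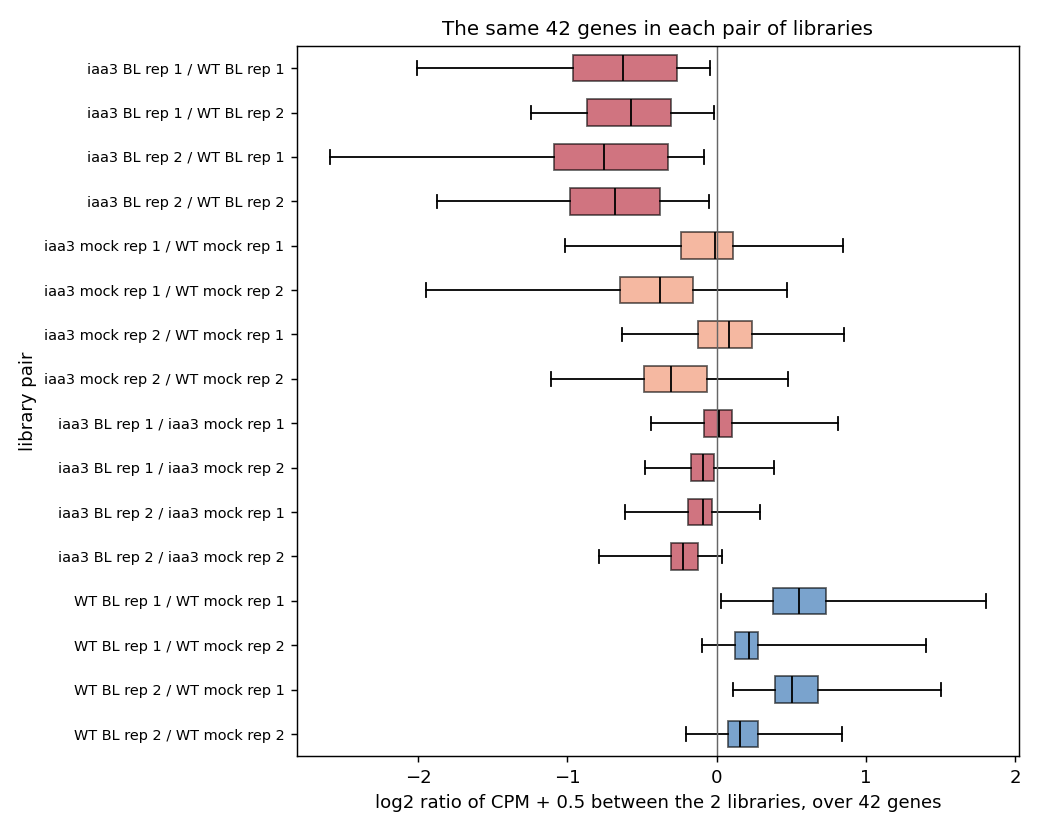
Log2 ratio of CPM plus 0.5 between 2 single libraries over the 42 genes, for each pair of libraries in 4 comparisons (boxes give the quartiles, the line the median, whiskers the lowest and highest gene). With BL all 42 genes are below 0 in each of the 4 pairs of iaa3 over wild type (WT), while the mock pairs move with the WT mock library used, with medians of −0.01 and 0.08 over replicate 1 and of −0.38 and −0.31 over replicate 2.

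Other genes of photosynthesis were read from lists of loci. In *iaa3* against wild type with BL, 3 of 7 further nuclear photosystem genes, 6 of 12 genes of electron carriers and ATP synthase, 2 of 8 Calvin cycle genes and 3 of 7 antenna-related genes were called lower, and none of these lists had a gene called higher, against 13.8% of all tested loci called lower and 11.2% called higher. The 5 genes of the Rubisco small subunit and Rubisco activase stayed under the 1.5-fold limit, and 5 of 5 were lower at an unadjusted p under 0.05, as were 28.1% of all tested loci. Among the antenna-related genes, *ELIP1* and *ELIP2* moved in the opposite direction to the 42 genes for the interaction. *ELIP1* had 1.95 and 1.79 CPM in *iaa3* BL, 0.18 and 0.14 in *iaa3* mock (4 and 3 reads), 1.66 and 1.34 in wild type BL, and 1.27 and 2.07 in wild type mock. *ELIP2* had 2.3 and 2.84 CPM in *iaa3* BL, 0.72 and 0.73 in *iaa3* mock, 2.91 and 2.32 in wild type BL, and 2.77 and 5.46 in wild type mock. Only the *iaa3* mock libraries were low for both genes. In *iaa3* against wild type in mock they were called lower at −3.37 and −2.52, with BL in *iaa3* they rose by 3.52 and 1.83, and the difference between the responses was 3.69 and 2.50. *LFNR2*, a ferredoxin NADP reductase, had 37.6 and 34.4 CPM in *iaa3* BL, 31.6 and 34.9 in *iaa3* mock, 104 and 90.7 in wild type BL, and 41.7 and 57.7 in wild type mock. It was lower in *iaa3* with BL at −1.44 and rose with BL in wild type by 0.97. *GAPA2*, a Calvin cycle dehydrogenase, had 304 and 280 CPM in *iaa3* BL, 318 and 324 in *iaa3* mock, 305 and 310 in wild type BL, and 182 and 226 in wild type mock, with low values only in wild type mock as for *PSAN*.

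Genes for known regulators did not share 1 direction. *HY5*, a light-signaling factor, had 55.7 and 56.7 CPM in *iaa3* BL and 87.4 and 96.0 in wild type BL, and was called lower at −0.71. *CGA1*, a GATA factor, was called lower at −0.71 as well, and its paralog *GNC* was called higher at 0.84, with 59.8 and 59.9 CPM in *iaa3* BL against 35.3 and 31.7 CPM in wild type BL. *GLK1* and *GLK2*, factors known to activate antenna genes, were not called in this comparison, at −0.35 and −0.10. Plastid-encoded photosystem genes, of which 6 were counted, summed to 55.8 and 43.2 CPM in *iaa3* BL, 29.1 and 21.5 in *iaa3* mock, 54.7 and 32.7 in wild type BL, and 65.9 and 13.6 in wild type mock. Their replicates lay further apart than their groups in wild type, with wild type mock replicate 1 the highest and replicate 2 the lowest of the 8 libraries. How well the library method captured plastid mRNA is not given in the sources used here, so these sums cannot be set against nuclear levels.

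Markers of other tissues moved with some of these comparisons, and their part in the results was not tested. The 5 *CASP* genes of the root endodermis summed to 32.9 and 27.0 CPM in *iaa3* BL, 43.1 and 45.2 in *iaa3* mock, 46.5 and 43.6 in wild type BL, and 108 and 120 in wild type mock. With BL in wild type 5 of 5 were called lower, beside 5.87% of all tested loci. In *iaa3* 2 of 5 were called lower with BL, beside 3.46%. Both BL libraries of *iaa3* were below both mock libraries for 5 of 5, beside 29.4%. Between the genotypes 5 of 5 were called lower in *iaa3* in mock, beside 9.48%, and 2 of 5 with BL, beside 13.8%. The 4 root hair genes summed to between 9.07 and 13.5 CPM in every library, with all *iaa3* sums above all wild type sums. Of these, 1 of 4 was called higher in *iaa3* with BL, beside 11.2% of all tested loci, and 1 of 4 in mock, beside 8.47%. The 7 seed reserve genes summed to 32.1 and 219 CPM in *iaa3* BL, 6.66 and 3.0 in *iaa3* mock, 370 and 261 in wild type BL, and 829 and 114 in wild type mock. Of the 6 that were tested, 4 were called higher with BL in *iaa3*, beside 4.69% of all tested loci. In mock 2 of 6 were called lower in *iaa3* than in wild type, beside 9.48%. *PORA*, a gene of dark-grown seedlings, rose with BL in wild type by 0.81 and was lower in *iaa3* with BL at −1.13. *PHYA*, a photoreceptor gene of dark-grown seedlings, was between 1225 and 1706 CPM and was not called in any comparison.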

How the data were processed

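The authors deposited raw read counts per locus and library, without normalization. TruSeq libraries were made from total RNA. The submitters' processing notes name CASAVA 1, TopHat, HTSeq and the TAIR9 build with no role or order. The use of strand and the treatment of reads matching several loci are not given in the sources used here. The software was DESeq2 1.42.0, limma 3.58.1 and edgeR 4.0.16 under R 4.3.3. Loci were filtered with filterByExpr by group (20415 of 33518), scaled with TMM factors, and fitted with edgeR's quasi-likelihood method, each group having its own coefficient. Calls between groups needed a 1.5-fold difference with an unadjusted p under 0.01. Interaction calls needed a Benjamini-Hochberg adjusted p under 0.05 over all tested loci. Standard errors were derived from the F statistic. Ratios between libraries used a pseudocount of 0.5 CPM.

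All 42 loci were matched by locus to RefSeq's TAIR10.1 annotation, from which promoters, coordinates, transcript lengths and shared 50-base windows (27444 transcripts) were taken. Windows were compared on both strands, so overlap with a transcript of the opposite strand is included. No coordinates of the deposited counts were used. The rule for the 42 genes names loci and no measured value, but the genes and lists were chosen with earlier results of these data known. By rule, values in every library were given for *LHCB1*, *LHCB2* and paralogous genes and for up to 3 called rises and falls per comparison. Values of further members, of *ELIP1*, *ELIP2*, *LFNR2*, *GAPA2*, *GNC* and *HY5* were added as members or called genes of the lists. The upper limit for an undetected gene, 3 counts, was between 0.120 and 0.172 CPM by library and covers counting error only. Alternatives were a replicate block, each library left out, the groups compared alone, a 2-fold limit, an adjusted p-value, nuclear loci only, a minimum of 10 counts per library, unfiltered loci, scaling by library size, RLE scaling and DESeq2.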

Additional observations from a re-analysis of the deposited data

Results flagged for a closer look

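The response to BL differed between *iaa3* and wild type by the interaction term for 19 genes, with an adjusted p under 0.05 in edgeR's quasi-likelihood test. The value is the response in *iaa3* minus that in wild type on the log2 scale. Among *LHCA* genes it was −0.79 for *LHCA1*, −0.42 for *LHCA4*, −0.38 for *LHCA5* and −0.61 for *LHCA6*. Among trimer genes it was −1.45 for *LHCB1.1*, −1.33 for *LHCB1.4*, −0.52 for *LHCB2.1* and −1.47 for *LHCB2.3*, and among linker genes −0.45 for *LHCB4.2* and −0.78 for *LHCB4.3*. Among PSI genes it was −0.45 for *PSAD2*, −0.70 for *PSAH2*, −0.66 for *PSAK*, −0.61 for *PSAL* and −0.70 for *PSAN*. Among PSII genes it was −0.50 for *PSBP1*, −0.54 for *PSBQ1*, −0.57 for *PSBS* and −0.60 for *PSBW*. When each library was left out in turn, the calls of *LHCB1.1*, *LHCB1.4*, *LHCB2.3*, *LHCB4.3* and *PSAN* held and the other 14 were lost at least once, with the direction kept.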

How the results depend on the processing

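With 2 libraries per group, single libraries decide several counts. Leaving out each library in turn gave 5 to 15 genes higher with BL in wild type, 20 to 24 lower in *iaa3* with BL, 1 to 10 lower and 0 to 3 higher in *iaa3* in mock, and 5 to 39 lower for the interaction. The medians ranged between 0.18 and 0.55 for BL in wild type, between −0.34 and 0.052 for *iaa3* in mock and between −0.66 and −0.32 for the interaction. Library size alone gave 0 higher in mock and 11 lower for the interaction. An unadjusted p under 0.01 with a 1.5-fold limit also gave 11 for the interaction. A 2-fold limit gave 10 lower in *iaa3* with BL, and 0 higher and 0 lower in mock. The causes were not tested, and the shares of all tested loci called in these settings are not given here. DESeq2 lost the interaction calls of *LHCA5* and *LHCA6*. No called value changed sign. The labels do not say that replicate numbers pair the samples, and the numbers were not taken to do so. Deviations of same-numbered libraries over 12324 loci correlated at 0.49 between the mock groups, at 0.12 between the *iaa3* groups and between −0.08 and −0.02 in the other 4 pairs of groups. The replicate block gave 6 higher for BL in wild type, 23 lower in *iaa3* with BL, 6 lower and 1 higher in mock and 22 lower for the interaction. None of the 55 calls made in the report's fit was lost with it. The block is a single term common to all groups, so it could not take up a replicate difference present in the mock groups alone. Its result does not decide whether the numbers pair the samples.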
